A study of Mus musculus with 9 samples.

Results

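The p53 target genes examined here are 10 genes that the transcription factor p53 is known to switch on: Cdkn1a, Mdm2, Ccng1, Perp, Zmat3, Phlda3, Aen, Trp53inp1, Sesn2 and Eda2r. They were found by gene symbol in the platform annotation, which gave 20 probe sets (1 to 4 per gene) among the 45101 of the array and 10 of its 18194 genes with a symbol of their own. Their signals were compared between renal vesicles of wild-type mouse kidneys (5 arrays) and of Lim1 mutant kidneys (4 arrays), both at the embryonic stage E12.5. Renal vesicles are the small epithelial balls from which each nephron grows, and Lim1 (current symbol Lhx1) is a LIM homeodomain factor needed in them. Each array held RNA from about 30 to 50 vesicles cut out by laser, and the labels call the 9 samples biologically independent. The labels name no allele, strain, driver or sex for either group, and do not say how many embryos were pooled in a sample.

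p53 is made continuously and destroyed almost as fast, because Mdm2, the product of one of its own targets, marks it for degradation. DNA damage, ribosome stress or oncogene signals break that loop, and p53 then raises genes that halt the cell cycle, repair DNA or kill the cell. In the embryonic kidney the balance matters because loss of Mdm2 from nephron progenitors depletes them through excess p53, and loss of p53 itself also disturbs their renewal.

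The tissue and the mutation were checked first. Of 9 renal vesicle markers found on the array (10 listed), all 9 lay above the filter on dim probe sets, which kept those in the upper 60% by mean log2 signal. Their summed signal reached 213360 in wild-type array 4, 163490 in array 5 and 147276 in array 1, and the other 6 arrays ranged from 73256 to 109764. Lhx1, the mutated gene, is one of these markers, so the sums are not independent of the mutation. At one Lhx1 probe set the mutants read 6.88 to 10.5 and the wild type 2327 to 17587, and at the other the mutants read 4108 to 4951 and the wild type 1696 to 18555. The altered part of Lhx1 is not named in the labels. Wild-type array 3 stood apart in its marker content. Its summed signal over all 9 stroma markers was 162627 against 24464 to 63209 on the other 8 arrays, and over all 7 macrophage markers 19995 against 898 to 4187. Over the 9 endothelial markers, wild-type arrays 3 and 4 read 15643 and 12447 and the other 7 arrays 3293 to 4802. Ureteric bud markers, 10 of 10 found, summed to 67200 on wild-type array 2 and 13236 to 22165 on the other wild-type arrays. In the mutants they summed to 5763 to 14607. Neural markers, 6 found of 7, summed to 1085 to 5985 and 820 to 1577. No marker of these lists had a signal of 0 on any array, and their part in the values of the p53 targets was not tested beyond leaving arrays out. In captured tissue, fewer cells of a type and less RNA per cell cannot be told apart. Median signals were 144 to 195 per array. Precision rests on the number of arrays.

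The sequences upstream of these genes were searched for the letters of a p53 half-site. p53 binds as a tetramer to paired half-sites of 10 bases, each 3 purines, a C, 2 letters that are A or T, a G, and 3 pyrimidines. A match to this pattern is its own match on the opposite strand. Windows of 300 bases, from 250 before to 50 after an annotated start (RefSeq, GRCm38.p6), were found for 7 of the 10 genes, and Perp, Zmat3 and Trp53inp1 had none in the table. A half-site with no mismatch lay in the windows of Cdkn1a, Ccng1, Mdm2 and Aen, 4 of the 7 genes (57.1%), against 9.55% of all 27025 genes in the table. A pair of such half-sites, both with no mismatch and separated by at most 13 bases, was found at Cdkn1a alone among the 7. It was found in 0.0731% of the 32851 windows. No half-site of this kind was found in these windows for Phlda3, Sesn2 or Eda2r. Half-sites with a mismatch were not searched for, so pairs that hold one were missed. The bases right after the second Cdkn1a match (tgacatgttc) fall short of the pattern by a single letter. So do those right before the Ccng1 match (agacctgccc). The matches are shown in capitals within the strand of the gene, so that the letters found can be seen in their context.
Cdkn1a, chr17:29090859-29090978, plus strand: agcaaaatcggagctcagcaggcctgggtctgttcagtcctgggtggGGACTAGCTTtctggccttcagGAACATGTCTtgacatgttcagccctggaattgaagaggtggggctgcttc
Ccng1, chr11:40755407-40755526, minus strand: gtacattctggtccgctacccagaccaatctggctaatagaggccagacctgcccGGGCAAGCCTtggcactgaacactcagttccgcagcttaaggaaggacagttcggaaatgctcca
Mdm2, chr10:117710879-117710998, minus strand: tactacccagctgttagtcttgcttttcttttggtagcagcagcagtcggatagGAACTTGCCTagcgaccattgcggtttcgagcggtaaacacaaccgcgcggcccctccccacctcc
Aen, chr7:78895927-78895956, plus strand: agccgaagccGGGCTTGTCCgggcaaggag

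At the second of the 2 annotated starts of Cdkn1a the window held no half-site. At the first, the half-sites of Cdkn1a began 73 and 51 bases before the start, with 12 bases between them. Those of Ccng1 and Mdm2 began 185 and 186 bases before theirs, and that of Aen at base 11 after the first of its 2 annotated starts in the table, which is position -121 from the other. A match is a description of letters, and no binding was measured here.

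No p53 target gene passed the test of a difference between the groups, and the groups overlapped at every probe set. Of the 20 probe sets, 14 passed the filter, covering 9 of the 10 genes, and Sesn2 did not. None of the 14 passed limma at adjusted p 0.05, and none reached an unadjusted p under 0.05. Over the whole array 9 of 27022 probe sets passed (0.0333%), 4 of them higher (0.0148%) and 5 lower (0.0185%) in the mutants, and 6.67% had an unadjusted p under 0.05. The exact permutation test, adjusted over all probe sets, called none on the array. Wild-type and mutant ranges were separate at 0 of the 20 member probe sets, against 2.25% of all those tested. The lowest adjusted p among the members was 0.792, shared by Trp53inp1 and Eda2r.

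Represented by its brightest probe set, 7 of the 9 tested genes had a mean above that of the wild type and 2 a mean below, against 56.5% above among all 13226 genes tested. With array medians centred in place of quantile normalisation the split was 6 and 3. The median log2 difference (mutant minus wild type) was 0.69 over the 9 genes, the value of Perp itself, and 0.07 over all genes. The filter, at 7.17 on the log2 scale, took the mean over both groups. Perp and Eda2r had wild-type means below it (6.97 and 7.04) and passed only through their higher mutant means. Both count among the 7 genes above the wild type, so the filter favoured that direction for them. The median was 0.35 over 7 genes, without Perp and Eda2r, with the filter at the 60th percentile or with probe sets averaged. It was 0.37 with the pseudocount at the median of all values and 0.84 with it at the 10th percentile. Over the 20 alternatives run it ranged from 0.35 to 0.84. With all 10 genes, and no filter, it was 0.52 over the 10 and 0.04 over all genes. A log2 difference of size 1 or more was seen for 2 of the 9, Zmat3 and Trp53inp1, and for 10.4% of all genes.

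**Figure D1:**
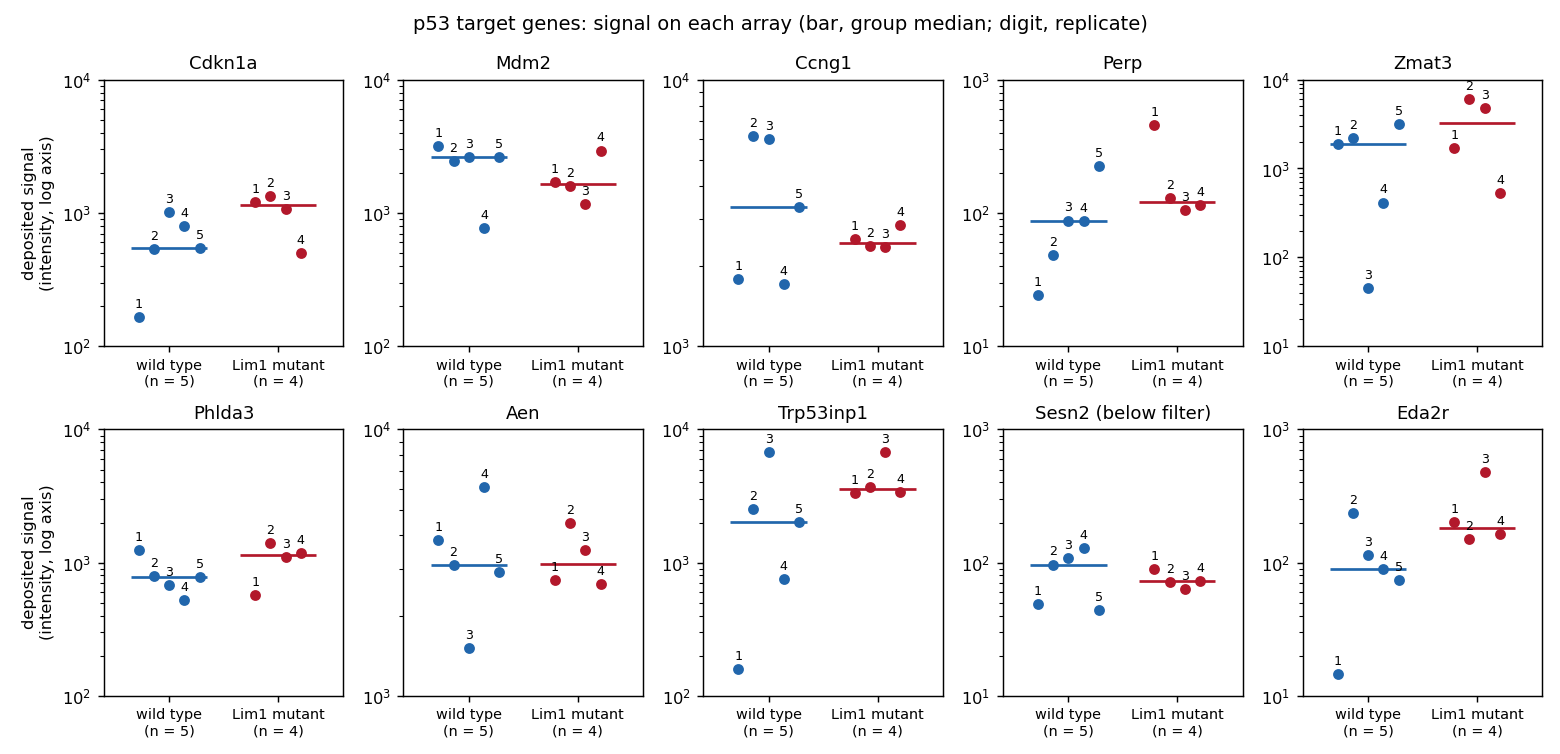
Deposited signal (intensity, log axis) of the brightest probe set of each of the 10 p53 target genes, with 5 wild-type arrays in blue, 4 Lim1 mutant arrays in red, digits for replicate numbers and bars for group medians. The groups overlap for every gene, and single wild-type arrays (array 1 for Cdkn1a, Trp53inp1 and Eda2r, array 3 for Zmat3) lie far below the rest.

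The genes with means below the wild type, Mdm2 and Ccng1, both feed back on p53. Mdm2, the ubiquitin ligase that destroys p53, read 3177, 2472, 2635, 765 and 2607 on wild-type arrays 1 to 5 and 1707, 1588, 1174 and 2940 on mutant arrays 1 to 4 (probe set 1423605_a_at). Wild-type array 4 was the lowest of the 9, and 3 of 4 mutants lay between it and the other wild-type arrays. Mutants differed from the wild type by a log2 value of -0.22 ± 0.49 (SE; 95% interval -1.30 to 0.86, adjusted p = 0.958, exact permutation p = 0.706). It was -0.62 without wild-type array 4 and 0.10 without wild-type arrays 1 and 3, so its direction was not fixed. A second tested Mdm2 probe set had a difference of the other sign, 0.36 ± 0.88, with signals of 22.2 to 1174 in the wild type and 97.0 to 1114 in the mutants. The third was below the filter, at 11.9 to 91.0 and 12.3 to 76.5.

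Ccng1, which encodes cyclin G1, a partner of the phosphatase PP2A that acts on Mdm2, read 1790, 6163, 5970, 1709 and 3322 in the wild type and 2521, 2373, 2362 and 2852 in the mutants (probe set 1420827_a_at). The wild type spread over 3.61-fold and the mutants over 1.21-fold, and all 4 mutants lay inside the wild-type range, below its median. The log2 difference was -0.36 ± 0.44 (95% interval -1.32 to 0.60, adjusted p = 0.919, exact permutation p = 0.429). It was -0.14 without wild-type array 2 or 3, -0.56 without array 1 and -0.61 without array 4. The other Ccng1 probe sets, dimmer but tested, had differences of -0.24 ± 0.56 and -0.29 ± 0.59. All 3 thus had the same sign.

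Cdkn1a is the classical p53 target of growth arrest and encodes p21, an inhibitor of cyclin-dependent kinases. Its signal was 165, 532, 1018, 794 and 546 in the wild type and 1205, 1335, 1073 and 502 in the mutants (probe set 1424638_at). Mutants 1 to 3 lay above every wild-type array, while mutant 4 lay below 4 of the 5. The log2 difference was 0.79 ± 0.54 (95% interval -0.39 to 1.98, adjusted p = 0.836, exact permutation p = 0.167). Without wild-type array 1, the lowest, it was 0.45 ± 0.47. Without mutant array 4 it was 1.14 ± 0.56 (limma adjusted p = 0.748). The other Cdkn1a probe set was close to the bottom of the scale, at 12.4 to 26.1 in the wild type and 15.2 to 19.3 in the mutants.

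Trp53inp1 is one of the targets linked to cell death. It encodes a stress-induced nuclear protein of the apoptotic and autophagic response, and read 159, 2513, 6799, 757 and 2031 in the wild type and 3339, 3716, 6729 and 3407 in the mutants (probe set 1416926_at). The mutants exceeded 4 of the 5 wild-type arrays and spread over 2.02-fold, whereas the wild type spread over 42.8-fold from array 1 to array 3. On the log2 scale the mutant mean differed by 1.55 ± 0.83 (95% interval -0.26 to 3.36, adjusted p = 0.792, exact permutation p = 0.183). Leaving out wild-type array 1 gave 0.87 ± 0.61. Leaving out array 3 gave 2.12 ± 0.71 (adjusted p = 0.577), and leaving out both gave 1.41 ± 0.49 (adjusted p = 0.583). With its probe sets averaged the difference was 0.42. Its other probe set, below the filter, had a difference of the other sign, -0.72 ± 0.46, with signals of 59.9 to 219 and 10.6 to 112.

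Eda2r, a receptor of the TNF family for an ectodysplasin isoform, was dim and read 14.6, 235, 115, 89.5 and 74.6 in the wild type and 203, 151, 477 and 163 in the mutants (probe set 1440085_at). All 4 mutants exceeded 4 of the 5 wild-type arrays, and wild-type array 2 lay above 3 of the mutants. The log2 difference was 0.96 ± 0.51 (95% interval -0.16 to 2.08, adjusted p = 0.792), and the exact permutation p of 0.0794 was the lowest among the member probe sets. Without wild-type array 1 the difference was 0.67, and without mutant array 3 it was 0.60.

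Perp, a membrane protein of desmosomes that also acts in p53-dependent death, lay just above the filter. It read 24.3, 48.3, 87.6, 87.0 and 225 in the wild type and 459, 129, 105 and 114 in the mutants (probe set 1416271_at). All 4 mutants were above the wild-type median, with wild-type array 5 above 3 of them. The log2 difference was 0.69 ± 0.51 (95% interval -0.43 to 1.82, adjusted p = 0.856, exact permutation p = 0.214).

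Phlda3, a pleckstrin-homology protein that restrains Akt, read 1237, 786, 684, 528 and 777 in the wild type and 575, 1396, 1099 and 1186 in the mutants (probe set 1449002_at). Both groups covered nearly the same range, 2.34-fold and 2.43-fold. Their mean log2 values differed by 0.35 ± 0.46 (95% interval -0.66 to 1.35, adjusted p = 0.927, exact permutation p = 0.381). The difference was 0.17 without wild-type array 4, 0.18 without mutant array 2, 0.53 without wild-type array 1 and 0.66 without mutant array 1.

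Aen encodes a nuclease that takes part in DNA fragmentation during apoptosis. Its brightest probe set read 3851, 3096, 1505, 6093 and 2907 in the wild type and 2727, 4437, 3515 and 2628 in the mutants (1423957_at). The mutants fell within the wild-type range, and the mean log2 values differed by 0.04 ± 0.40 (95% interval -0.85 to 0.93, adjusted p = 0.993, exact permutation p = 0.913). The dimmer Aen probe sets did not share this value, at 0.95 ± 0.78 and 0.63 ± 0.67 where tested and -0.51 ± 0.37 below the filter. The first of these read 56.5 to 614 in the wild type and 69.3 to 1174 in the mutants.

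Zmat3 encodes a zinc finger protein that binds RNA and controls splicing and stability of transcripts. Its signals were 1871, 2211, 44.9, 414 and 3197 in the wild type and 1694, 5999, 4781 and 527 in the mutants (probe set 1449353_at). Mutants 2 and 3 were the highest of the 9 arrays, mutants 1 and 4 lay inside the wild-type range, and wild-type array 3 was the lowest. The log2 difference of 1.37 ± 1.08 had the widest interval of the set (-1.0 to 3.75, adjusted p = 0.861, exact permutation p = 0.333). Without wild-type array 3 it was 0.55 ± 0.85, without mutant array 2 it was 0.89, and without mutant array 4 it was 2.09. Wild-type array 3, with the high stroma and macrophage signal, held both the lowest Zmat3 and the highest Trp53inp1 reading. The part of those cells in either reading was not tested.

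Sesn2, a sestrin that restrains mTORC1 under stress, was below the filter at both probe sets and was not tested across the array. The brighter read 49.0, 96.7, 108, 129 and 43.7 in the wild type and 89.6, 71.9, 63.7 and 72.9 in the mutants (probe set 1451599_at). The mutants lay inside the wild-type range, with a log2 difference of -0.15 ± 0.34 in the fit without a filter. The other had readings of 4.43 to 363 and 5.12 to 375 and a difference of 0.48 ± 0.83.

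**Figure D2:**
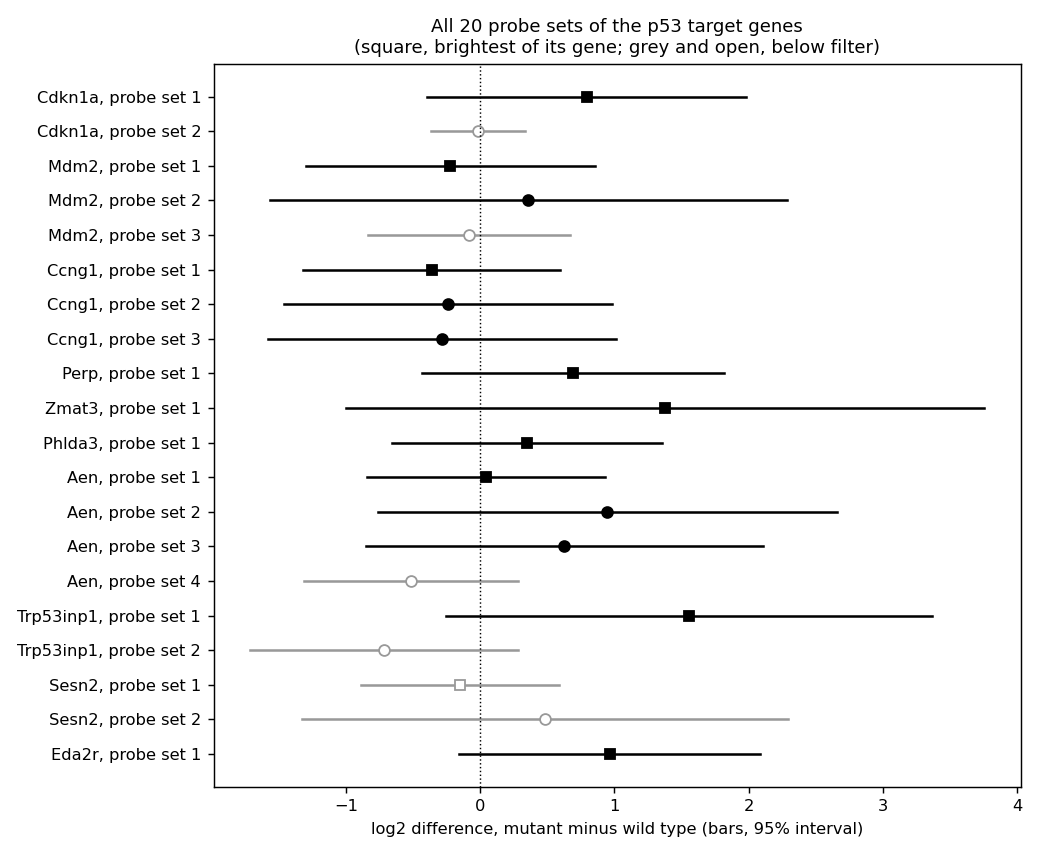
Log2 difference (mutant minus wild type, x axis) with its 95% interval for each of the 20 probe sets, ordered by gene; squares mark the brightest probe set of a gene, and grey open symbols the 6 probe sets below the filter. All 20 intervals include 0, and the probe sets of Cdkn1a, Mdm2, Aen, Trp53inp1 and Sesn2 lie on both sides of it.

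The spread between arrays was wide and fell mostly on the wild type. The log2 SD of the 9 tested genes ranged from 0.54 to 2.18 in the wild type and from 0.11 to 1.64 in the mutants. It was larger in the wild type for 8 of the 9 genes, the exception being Phlda3, and for 64.3% of all genes tested. The lowest signal of the 9 arrays fell on a wild-type array for all 9 genes, which held for 68.7% of all genes. It was on wild-type array 1 for Cdkn1a, Perp, Trp53inp1 and Eda2r, on array 4 for Mdm2, Ccng1 and Phlda3, and on array 3 for Zmat3 and Aen. Arrays 1, 3 and 4 together held the lowest signal for 49.9% of all genes. These counts were chosen after their values were seen, and wild-type arrays outnumber mutant arrays.

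The targets did not go up and down as a block from array to array. On wild-type array 1, deviations from the mean over the 9 arrays were -3.38 for Trp53inp1 and -1.68 for Cdkn1a, in log2 units, but 0.76 for Mdm2. On wild-type array 4 they were -1.75 for Zmat3 and -1.72 for Trp53inp1, but 0.95 for Aen. The median deviation over the 9 tested genes was -0.64, 0.13, -0.12, -0.83 and -0.02 on wild-type arrays 1 to 5 and 0.30, 0.49, 0.40 and -0.04 on mutant arrays 1 to 4, while that of all genes stayed between -0.09 and 0.14. Mutant array 4 thus lay among wild-type arrays 2, 3 and 5, and the groups overlapped. For Gapdh, the ratio of the 3 prime to the 5 prime control probe set, which measures transcript length after amplification, was 36.2 and 30.7 on wild-type arrays 1 and 4, inside the range of 12.4 to 61.4 seen on the other arrays except wild-type array 3 (87.6). The mean correlation of an array with the others was lowest on wild-type arrays 1, 3 and 4 (0.860, 0.850 and 0.877), and 0.883 to 0.901 on the rest. The part of array quality in the values of the targets was not tested.

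**Figure D3:**
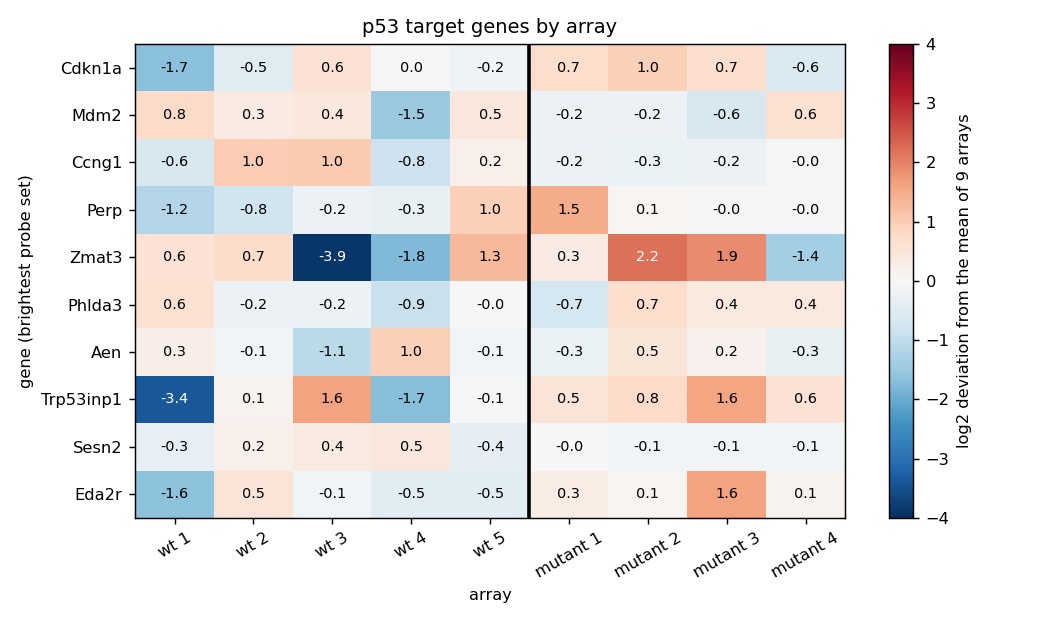
Deviation of each p53 target gene (rows, brightest probe set) from its own mean over the 9 arrays (columns, wild type left of the line), in log2 units by colour and number. The lowest values of the 9 tested genes stand on wild-type arrays 1, 3 and 4, in different genes on each, and that of Sesn2 on wild-type array 5.

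The rest of the pathway was taken from 4 gene lists, none of which had a member past adjusted p 0.05 (0.0529% of all genes passed at their brightest probe set). At an unadjusted p under 0.05 there were 4 genes: 1 target of arrest and repair, 3 cell cycle genes, none among the regulators and none among the apoptosis targets. These 4 of 64 genes stand beside 6.67% of all probe sets at that threshold. Regulators of p53 (18 tested of 22 listed) had 11 differences above 0 and 7 below, with a median of 0.06 where that of all genes was 0.07. With median centring the split was 8 and 10 (median -0.056). Mdm4, the partner of Mdm2 in holding p53 down, was at 3498 to 9154 in the wild type and 4359 to 9604 in the mutants, a difference of -0.05 ± 0.34 on the log2 scale (adjusted p = 0.989). Its other tested probe sets read 0.23 and -0.67. The regulators with the lowest p were Rpl11, a ribosomal protein that can bind Mdm2 (-0.31 ± 0.15), Ep300, an acetyltransferase and coactivator of p53 (1.25 ± 0.64), and Atr, a kinase of the damage response (-0.72 ± 0.38), with adjusted p of 0.776, 0.786 and 0.792. Another Atr probe set had the other sign (1.16 ± 1.03).

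Other targets of arrest, repair and metabolism (21 tested of 23) had 12 differences above 0 and 9 below, with a median of 0.04. The split was 10 and 11 with median centring, and 9 and 12 with array weights and without wild-type array 4 (median -0.14 without that array). Plk3, a polo-like kinase of the stress response, read 139, 175, 312, 199 and 207 in the wild type and 22.7, 177, 37.2 and 67.9 in the mutants. Mutant array 2 lay among the wild-type arrays and the other 3 mutants below them all (log2 difference -1.27 ± 0.44, adjusted p = 0.696, exact permutation p = 0.0238). Tigar, a regulator of glycolysis, had a difference of -1.35 ± 0.72 at its brightest probe set (adjusted p = 0.793) but 1.31 ± 0.51 and 0.19 ± 0.50 at its others. Slc19a2, a thiamine transporter, had one of 1.0 ± 0.68 (adjusted p = 0.837).

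Other apoptosis targets (10 tested of 12) had 5 differences above 0 and 5 below, with a median of -0.07. With no filter the split was 6 and 5 (median 0.085). The lowest p belonged to Trp53i11, a p53-inducible gene, at 57.2 to 348 in the wild type and 190 to 563 in the mutants (1.05 ± 0.55, adjusted p = 0.79). Siva1, a pro-apoptotic protein, had a difference of -0.22 ± 0.21 (adjusted p = 0.889) and Trp53i13 one of 0.36 ± 0.45 (adjusted p = 0.923).

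Cell cycle genes known to be repressed when p53 raises p21 (15 tested of 16) had 11 differences above 0 and 4 below, with a median of 0.03. The split was 6 and 9 with median centring (median -0.081) and without wild-type array 3 (median -0.029), and without wild-type array 2 the median was 0.20. Foxm1, a transcription factor of the G2 programme, read 1392, 939, 1148, 555 and 1009 in the wild type and 2154, 2592, 1477 and 1545 in the mutants. All 4 mutants lay above all 5 wild-type arrays (0.96 ± 0.42 on the log2 scale, adjusted p = 0.737, exact permutation p = 0.0159). The other Foxm1 probe sets gave 1.19 ± 0.48 and -0.01 ± 0.42. Aurka, the mitotic kinase Aurora A, read 2537, 3734, 1869, 2364 and 3546 in the wild type and 4019, 4263, 4339 and 4484 in the mutants, again without overlap (0.66 ± 0.29, adjusted p = 0.748, exact permutation p = 0.0238). Its other tested probe set gave 0.11 ± 1.13. Ect2, which acts in cell division, had a difference of 1.05 ± 0.46 (adjusted p = 0.737) with overlapping groups. The groups did not overlap at 2 of the 15 genes of this list and at none in the other 3 lists, which is 2 of 64 genes. The share was 2.25% over all probe sets and was not counted by gene. At the other tested probe sets of Foxm1 and Aurka the groups overlapped.

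**Figure D4:**
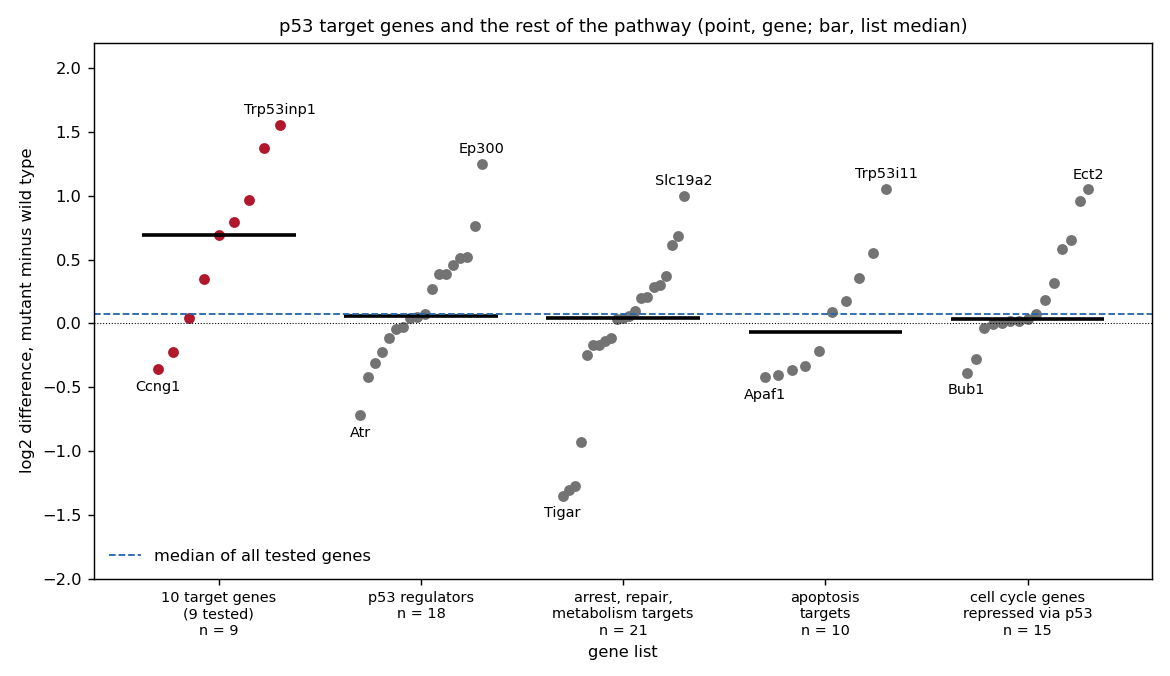
Log2 difference (mutant minus wild type, y axis) of each tested gene in the p53 target set (red) and in the 4 lists of the rest of the pathway (grey), with a bar at each list's median and a dashed line at the median of all tested genes (0.07). The 9 tested targets have a median of 0.69 and the 4 other lists medians of -0.07 to 0.06, values that move with the processing. Perp, whose value is that 0.69, and Eda2r passed the filter only through their higher mutant means. With the filter at the 60th percentile, which leaves both out, the median was 0.35 over 7 targets. None of the genes plotted passed the test.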

How the data were processed

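Per the labels' protocols, RNA of the captured vesicles went through 2 rounds of amplification before biotin labelling, a procedure that favours the 3 prime ends of transcripts. The authors deposited 1 intensity per probe set and array, made with GCOS per the submitters' processing notes; the sources used here give neither its algorithm nor its version. The deposited intensities had the same mean on every array (1500 after trimming 2% at each end), so each array had been scaled. Signals are given as deposited.

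Intensities were taken as log2(value + 42.4), the 25th percentile of all values, and quantile normalised; array medians of log2 values ranged from 7.54 to 7.89 before that. Differences on this scale understate changes of dim probe sets. Of 45037 probe sets other than controls, the 27022 at or above the 40th percentile of the mean were tested with limma 3.58.1 in R 4.3.3 (lmFit, eBayes with a variance trend, group as the only term, two-sided), and p values were adjusted by Benjamini-Hochberg over all of them. Intervals are 95% and not adjusted. Exact permutation tests were two-sided over all 126 splits (smallest p 0.00794) on the normalised log2 values. The fit was tested on simulated data.

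Names come from the platform annotation, in which 34958 probe sets had 1 symbol, 932 several and 9211 none, and only the first were used. The brightest probe set by mean stood for a gene. Named genes were all members, Lhx1, Mdm4 and, from each list, those past the threshold and the 3 with the lowest p. Trp53 was not analysed here, nor were Rpl5, Gdf15, Fdxr, Bax and Ccnb1 of the lists. The members and lists were chosen with earlier results of these data known. Alternatives covered normalisation, pseudocount, filter, variance model, array weights, replicate number, averaging of probe sets and left-out arrays.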

Additional observations from a re-analysis of the deposited data

Results flagged for a closer look

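Within the 40 groups of signals (20 probe sets, 2 groups each), Dixon's test set 1 array apart from its group in 7. About 2 would be set apart by chance (1 group in 20) if the signals were normally distributed and the groups independent. The test took deposited signals without a log, and the same arrays recur in every group, so 7 against 2 does not show an excess. All 7 were set apart on the high side. In the mutants these were Perp on array 1 (459 against 105 to 129 on the other 3), Trp53inp1 on array 3 (6729 against 3339 to 3716, brightest probe set), Eda2r on array 3 (477 against 151 to 203) and the dimmest Mdm2 probe set on array 3 (76.5 against 12.3 to 12.9). In the wild type they were the same Mdm2 probe set on array 1 (91.0 against 11.9 to 20.4), the second Ccng1 probe set on array 5 (834 against 101 to 211) and the dimmer Sesn2 probe set on array 1 (363 against 4.43 to 75.4). Mutant array 3 accounts for 3 of the 7 and wild-type array 1 for 2.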

How the results depend on the processing

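No member gene and no gene of the 4 pathway lists passed adjusted p 0.05 in any of the 20 alternatives run, and the lowest adjusted p of a member was 0.577, for Trp53inp1 without wild-type array 3. The differences of Cdkn1a, Ccng1, Perp, Zmat3, Phlda3, Trp53inp1 and Eda2r kept their sign wherever they could be fitted (Perp in 16 and Eda2r in 18 of the 20), though with probe sets averaged Trp53inp1 was at 0.42 and Cdkn1a at 0.39. That of Aen turned with median centring (-0.061), array weights (-0.0040) and without wild-type arrays 1 and 3 (-0.22), and ranged from -0.23 to 0.29 with each array left out. That of Mdm2 turned without wild-type arrays 1 and 3 (0.10) and with probe sets averaged (0.018), and that of Sesn2 with probe sets averaged (0.17). The cause was not tested. The count of 9 called probe sets was 3 to 8 with each array left out, 5 of 10916 genes with probe sets averaged, and 0 in limma without wild-type arrays 1 and 3 (2013 at an unadjusted p under 0.05). Median centring gave 3 higher and 6 lower. With the replicate number as a block 0 were called (1756 at an unadjusted p under 0.05) and no member, and the fit leaves few degrees of freedom. Same-numbered arrays correlated at -0.11 to 0.05 in their deviations from the group means. With so few arrays this cannot settle whether the numbers pair the samples. Dim probe sets (Perp, Eda2r, Sesn2) depend most on the pseudocount: at the median of all values the difference was 0.37 for Perp and 0.56 for Eda2r. At the 10th percentile it was 0.90 for Perp and 1.2 for Eda2r.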
